A study of Rattus norvegicus with 8 samples.

Results

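The genes described here are the receptors for glucocorticoid hormones and 8 genes that these hormones are known to induce. The receptors are Nr3c1, the glucocorticoid receptor, and Nr3c2, the mineralocorticoid receptor, which also binds corticosterone. The targets are Fkbp5, Sgk1, Tsc22d3, Zbtb16, Klf9, Cdkn1a, Bcl6 and Errfi1. Members were all probe sets (groups of short probes that report 1 transcript) whose symbol in the platform's probe-to-gene table was exactly one of these 10 names. This gave 14 probe sets for 9 genes, out of 31042 on the array once controls were set aside. No probe set carried the symbol Zbtb16, and that gene was not analysed here.

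The tissue was frontal cortex from rats, males of the outbred Sprague-Dawley stock weighing about 200 g at the start. Transcripts were measured on an Affymetrix-type rat array with 1 array per animal. The olanzapine group, 4 arrays numbered by animal as 9, 14, 18 and 19, had received olanzapine at 2 mg/kg/day by the intraperitoneal route. The saline group, 4 arrays numbered 14, 15, 17 and 19, had received saline. Both groups were treated for 21 days, each drawn from 20 randomly assigned animals. The sources used here do not give age, time of day or handling before dissection. Olanzapine is an antipsychotic drug and an antagonist at several serotonin, dopamine and other receptors.

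In rats the adrenal hormone corticosterone enters brain cells and binds both receptors, which rest in the cytoplasm with chaperone proteins. The bound receptor moves to the nucleus, where it attaches to DNA at glucocorticoid response elements and raises or lowers transcription of nearby genes. Fkbp5, Sgk1, Tsc22d3 and Klf9 are widely used as readouts of this action in brain tissue, and they follow both stress and the daily rhythm of the hormone. The question addressed is whether the receptors or these readouts differed between olanzapine and saline cortex, and how they varied from animal to animal.

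The median intensity of the 8 arrays was 159 to 191. Saline 15 resembled the remaining arrays least, with a median correlation of 0.953, and olanzapine 18 most, with 0.970. Of 5 excitatory neuron markers on the array, 4 were bright enough to be tested, Nrgn, Slc17a7, Neurod6 and Camk2a at percentiles 96, 93.2, 87.4 and 74.4 of probe set brightness, while Tbr1 lay at 25.4. Of 6 striatal neuron markers on the array, Drd2 and Adora2a lay at percentiles 12 and 22.5, while Penk, Ppp1r1b, Drd1 and Rgs9 lay at 90.1, 67.8, 63.1 and 57. Markers of the meninges, the brain's covering membranes, had differences above 0 in 9 of 9 tested genes, 6 of them with an unadjusted limma p under 0.05. The mean log2 level of that list was 8.26 to 8.48 in saline and 8.61 to 9.43 in olanzapine. Astrocyte markers had differences below 0 in 8 of 8 tested genes, with list means of 11.55 to 11.68 in saline and 11.25 to 11.55 in olanzapine. Of all tested probe sets, 56% had a difference above 0, and 4.59% were higher in olanzapine at an unadjusted limma p under 0.05. In neither marker list did a gene pass the adjusted test. The part of these markers in the results below was not tested. In bulk tissue, fewer cells of a type and less RNA per cell cannot be told apart.

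Sequence upstream of 3 of the targets is shown first, because Sgk1, Errfi1 and the brightest probe set of Klf9 had their 2 highest values in the same 2 animals, as described below. The lines give RefSeq promoter windows in the GRCr8 assembly, each 300 bases written 5′ to 3′ on the gene's own strand, from 250 bases before the start site to 50 after it. Capitals mark 2 short motifs that were found, the TATA box TATAAA and the cyclic AMP response core TGACG, which reads CGTCA on the other strand. Sgk1 has 3 such windows, of which 2 hold a TATA box, and the one shown belongs to the start site farthest along the gene. They lie at chr1:24804782-24805081 (minus strand) for Sgk1, chr1:230126396-230126695 (plus strand) for Klf9 and chr5:166606591-166606890 (plus strand) for Errfi1.
Sgk1: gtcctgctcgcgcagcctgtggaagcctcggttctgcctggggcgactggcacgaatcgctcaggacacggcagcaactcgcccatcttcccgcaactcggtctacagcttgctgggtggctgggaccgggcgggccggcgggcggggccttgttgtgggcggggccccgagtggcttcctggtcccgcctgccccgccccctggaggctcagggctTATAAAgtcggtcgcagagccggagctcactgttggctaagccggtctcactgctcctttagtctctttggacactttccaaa
Klf9: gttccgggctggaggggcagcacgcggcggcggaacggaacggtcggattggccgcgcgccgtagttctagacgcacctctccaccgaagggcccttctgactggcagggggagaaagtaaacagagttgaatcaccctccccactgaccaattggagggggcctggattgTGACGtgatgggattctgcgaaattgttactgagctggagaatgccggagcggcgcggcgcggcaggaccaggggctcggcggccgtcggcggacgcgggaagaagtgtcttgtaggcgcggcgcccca
Errfi1: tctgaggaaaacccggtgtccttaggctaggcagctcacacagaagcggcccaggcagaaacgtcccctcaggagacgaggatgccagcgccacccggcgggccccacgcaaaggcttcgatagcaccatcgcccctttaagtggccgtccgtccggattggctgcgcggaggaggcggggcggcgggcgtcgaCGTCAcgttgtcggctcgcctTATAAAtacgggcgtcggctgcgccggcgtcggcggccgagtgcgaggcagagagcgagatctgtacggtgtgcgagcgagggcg

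The TATA box begins 33 bases before the start site of this Sgk1 window and 35 bases before that of Errfi1. The core TGACG begins 79 bases before the Klf9 start site, and its reverse begins 56 bases before the Errfi1 start site. Both motifs are common. TGACG was found on either strand in 21.2% of 33469 windows of this length in the RefSeq table, and TATAAA in 14.2%. Of the 13 member windows, 5 held TGACG and 4 held TATAAA. Tsc22d3 holds both motifs and Cdkn1a and Bcl6 hold TGACG, though these genes did not share the animal pattern. A link between the motifs and that pattern was not tested. The glucocorticoid response element was searched in 2 forms, as a palindrome of GNACA and TGTNC spaced by 3 bases, and as the single hexamer AGAACA, on both strands. Neither form was found in the 13 windows listed for 8 of the genes. The palindrome was found in 0.439% of all windows and the hexamer in 20.7%, so the absence says only that these letters are not in these short windows. The motifs do not overlap each other in the windows shown.

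Levels are deposited linear intensities, and differences are olanzapine minus saline on the scale log2(intensity + 63.4), with their standard error (SE). No receptor or target passed the test between olanzapine and saline. Of the 14 probe sets, 10 were bright enough to be tested, at least 1 for each of the 9 genes. In limma 0 of these 10 passed an adjusted p of 0.05, as did 0 of all 18625 probe sets tested (0%). At an unadjusted p under 0.05 there was 1 of 10, Cdkn1a, against 8.32% of all tested probe sets (4.59% higher and 3.73% lower in olanzapine). The difference was above 0 in 8 of 10, against 56% of all tested probe sets, with a median of 0.11 against 0.027. After median centring it was above 0 in 7 of 10. Intensities on each array are shown in the plot of receptor and target probe sets by animal.

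**Figure D1:**
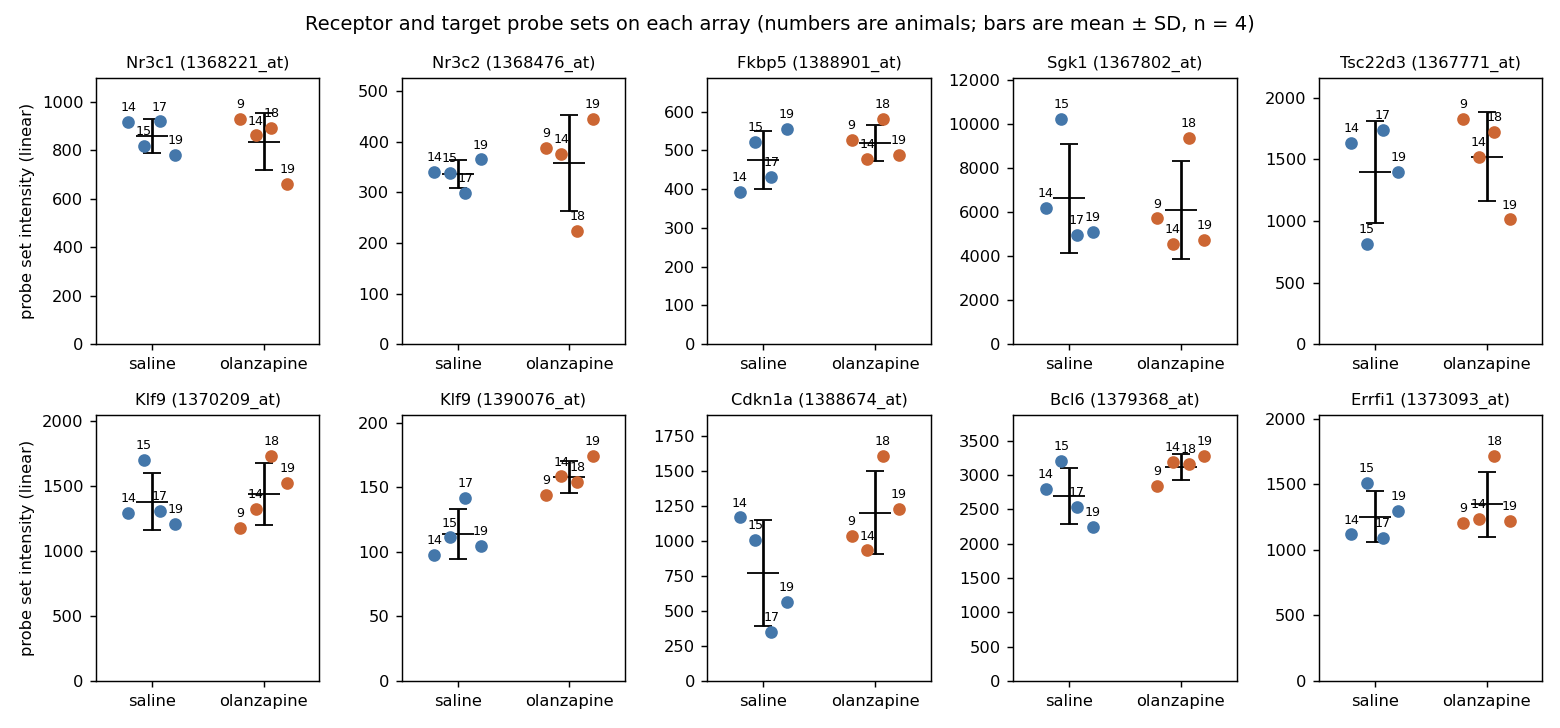
Linear intensity (y axis, from 0) of the 10 tested receptor and target probe sets in saline (blue) and olanzapine (orange); each point is 1 animal with its number, and black bars are the mean ± SD of 4 arrays. The groups overlap in every panel but that of Klf9 probe set 1390076_at, and saline 15 and olanzapine 18 stand above the other arrays for Sgk1.

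The glucocorticoid receptor gene Nr3c1 was at 918, 818, 920 and 782 in saline 14, 15, 17 and 19 (probe set 1368221_at). Levels in olanzapine 9, 14, 18 and 19 were 930, 862, 892 and 663. The groups overlapped, and the lowest value was that of olanzapine 19. The difference was -0.043 (SE 0.13, limma adjusted p = 0.952), with a 95% interval of -0.31 to 0.23. Without olanzapine 19 it was 0.057. A second Nr3c1 probe set, 1368222_at, was among the dimmest 1% of the array, at 3.88 to 13.9, and was not tested.

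Nr3c2 had 1 probe set, at 340, 338, 298 and 365 in saline 14, 15, 17 and 19. Its level in olanzapine 9, 14, 18 and 19 was 388, 376, 224 and 445. Olanzapine held both the lowest and the highest value, so its SD of 94.5 compared with 27.6 in saline. The difference was 0.051 (SE 0.18, limma adjusted p = 0.960, 95% interval -0.33 to 0.43). It was 0.23 without olanzapine 18 and -0.049 without olanzapine 19, so these 2 arrays pulled it in opposite directions.

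Fkbp5 encodes a co-chaperone that lowers the receptor's affinity for hormone and is itself induced by it. Its level was 392, 522, 432 and 554 in saline 14, 15, 17 and 19 and 527, 477, 581 and 488 in olanzapine 9, 14, 18 and 19 (probe set 1388901_at). The olanzapine values lay within or just above the saline range, with a mean of 518 ± 46.8 against 475 ± 75.8 (SD, n = 4). The difference had a 95% interval of -0.18 to 0.42 and ran from 0.042 without saline 14 to 0.19 without saline 19. The other Fkbp5 probe set, 1380611_at, was at 8.98 to 80.2 and was not tested.

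Tsc22d3 encodes the leucine zipper protein GILZ, which carries part of the anti-inflammatory action of glucocorticoids. Its level was 1629, 817, 1737 and 1398 in saline 14, 15, 17 and 19. The olanzapine arrays 9, 14, 18 and 19 read 1826, 1521, 1723 and 1012. Saline 15 and olanzapine 19 were the low arrays, 1 in each group. The difference was 0.14 (SE 0.21, limma adjusted p = 0.900), and it turned to -0.088 without saline 15 and rose to 0.31 without olanzapine 19.

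Sgk1 encodes a kinase that regulates ion channels and transporters, and it is a target of both receptors. Saline 14, 15, 17 and 19 were at 6209, 10248, 4977 and 5111. Olanzapine 9, 14, 18 and 19 were at 5725, 4579, 9392 and 4753. Saline 15 and olanzapine 18 stood apart from the other 6 arrays, which lay between 4579 and 6209. The difference was -0.12 (SE 0.22, limma adjusted p = 0.923), 0.11 without saline 15 and -0.34 without olanzapine 18. After quantile normalization it was 0.0067.

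Klf9, a zinc finger transcription factor gene that also responds to thyroid hormone, had 3 probe sets. The brightest, 1370209_at, was at 1291, 1696, 1308 and 1208 in saline 14, 15, 17 and 19. In olanzapine 9, 14, 18 and 19 it was at 1178, 1322, 1730 and 1519, with saline 15 and olanzapine 18 again highest. Its difference was 0.059 (SE 0.13, limma adjusted p = 0.935), and it was -0.032 without olanzapine 18 and 0.16 without saline 15.

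The second Klf9 probe set, 1390076_at, was dimmer, at percentile 44.3 of brightness, just above the limit for testing. It was at 97.7, 111, 142 and 105 in saline 14, 15, 17 and 19 and at 144, 158, 155 and 175 in olanzapine 9, 14, 18 and 19. All 4 olanzapine values exceeded all 4 saline values, by 144 against 142 at the nearest. This was the 1 of 10 tested member probe sets without overlap, against 4.47% of all tested probe sets (2.4% with olanzapine higher and 2.07% lower). The difference was 0.32 (SE 0.19, limma adjusted p = 0.717, 95% interval -0.087 to 0.74). With 1 array left out it ran from 0.28 to 0.40. The brighter probe set of the same gene did not share this separation, and the third, 1387882_at, was not tested at 7.08 to 77.6.

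Errfi1 encodes a feedback inhibitor of the epidermal growth factor receptor. Its level was 1117, 1508, 1088 and 1296 in saline 14, 15, 17 and 19. The olanzapine arrays 9, 14, 18 and 19 read 1206, 1238, 1718 and 1222. Apart from olanzapine 18, the olanzapine values lay inside the saline range. The difference was 0.095 (SE 0.14, limma adjusted p = 0.894) and -0.022 without olanzapine 18.

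Cdkn1a encodes the cyclin-dependent kinase inhibitor p21 and responds to p53 and to growth signals as well as to glucocorticoids. Probe set 1388674_at was at 1166, 1006, 349 and 565 in saline 14, 15, 17 and 19. In olanzapine 9, 14, 18 and 19 it was at 1037, 931, 1607 and 1229. Saline 17 and saline 19 were low, while saline 14 and 15 lay within the olanzapine range. The difference of 0.70 (SE 0.27) was a 1.62-fold higher level on the log2 scale, with a 95% interval of 0.12 to 1.28, an unadjusted limma p of 0.0209 and an adjusted p of 0.517. Without saline 17 it was 0.40, with an unadjusted limma p of 0.0833. The unadjusted limma p was also above the threshold without saline 19 (0.0628) and without olanzapine 18 (0.0730). It was 0.0524 in limma without the mean-variance trend, and it was above 0.05 in the plain test as well. In limma with the animal number as a block it was 0.104, where the difference rests on the arrays numbered 14 and 19 alone. The adjusted limma p ran from 0.383 to 0.998 over the alternatives. A second Cdkn1a probe set, 1387391_at, was at 5.28 to 35.4 and was not tested.

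Bcl6, a transcriptional repressor gene of the zinc finger class, was at 2794, 3199, 2533 and 2239 in saline 14, 15, 17 and 19. Olanzapine 9, 14, 18 and 19 were at 2842, 3193, 3158 and 3281. All 4 olanzapine values were above all saline values but that of saline 15. The difference was 0.22 (SE 0.11, 95% interval -0.013 to 0.45) with an unadjusted limma p of 0.0623 and an adjusted p of 0.634. It was 0.14 without saline 19 and 0.30 without saline 15. The unadjusted limma p was under 0.05 in 6 of the 19 alternatives, from 0.00851 without saline 15 to 0.0458 without olanzapine 9, and the smallest adjusted limma p over the alternatives was 0.452. Differences for all tested probe sets and their dependence on single arrays are shown in the plot of differences with intervals.

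**Figure D2:**
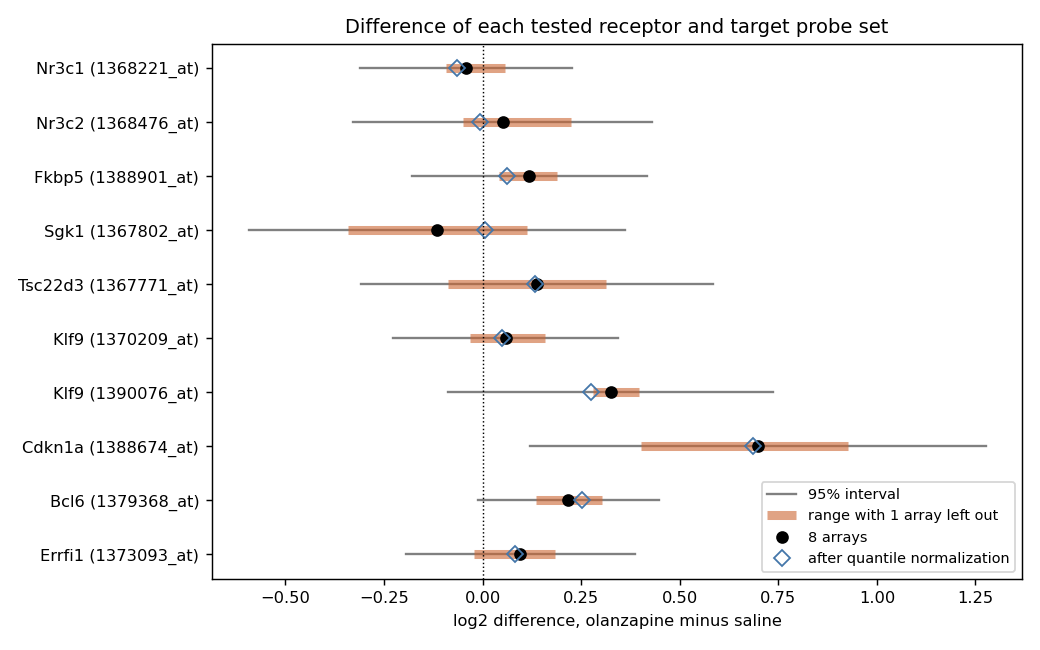
Log2 difference, olanzapine minus saline (x axis), for the 10 tested receptor and target probe sets (y axis); black points are the values from 8 arrays, grey lines their 95% intervals, orange bars the range with 1 array left out, and open diamonds the values after quantile normalization. The interval of Cdkn1a, 0.12 to 1.28, lies above 0 before adjustment and the other 9 intervals cross 0.

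Between animals, Sgk1, Errfi1 and Klf9 probe set 1370209_at shared a pattern. Saline 15 and olanzapine 18 were the 2 highest arrays for each of them, which is 3 of 10 tested member probe sets, against 4.13% of all tested probe sets (770 of 18625). These arrays were picked after the values had been seen. The other tested Klf9 probe set, 1390076_at, was highest in olanzapine 19 and olanzapine 14, at 175 and 158, and was at 111 in saline 15. The same 2 arrays were highest in 6 of 7 tested oligodendrocyte markers, genes of the cells that make myelin. Mbp, the myelin basic protein gene, was at 5652 in saline 15 and 5961 in olanzapine 18, and at 2691 to 4224 in the other 6 arrays. Mobp, another myelin gene, was at 2652 and 3116 in these 2 arrays and at 1045 to 2032 in the others. The mean log2 level over the 7 markers was 10.15 in saline 15 and 10.25 in olanzapine 18, and 9.40 to 9.77 elsewhere. Among mice, Sgk1 is known to be expressed in oligodendrocytes. The part of myelinated tissue in the Sgk1, Klf9 and Errfi1 values was not tested.

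**Figure D3:**
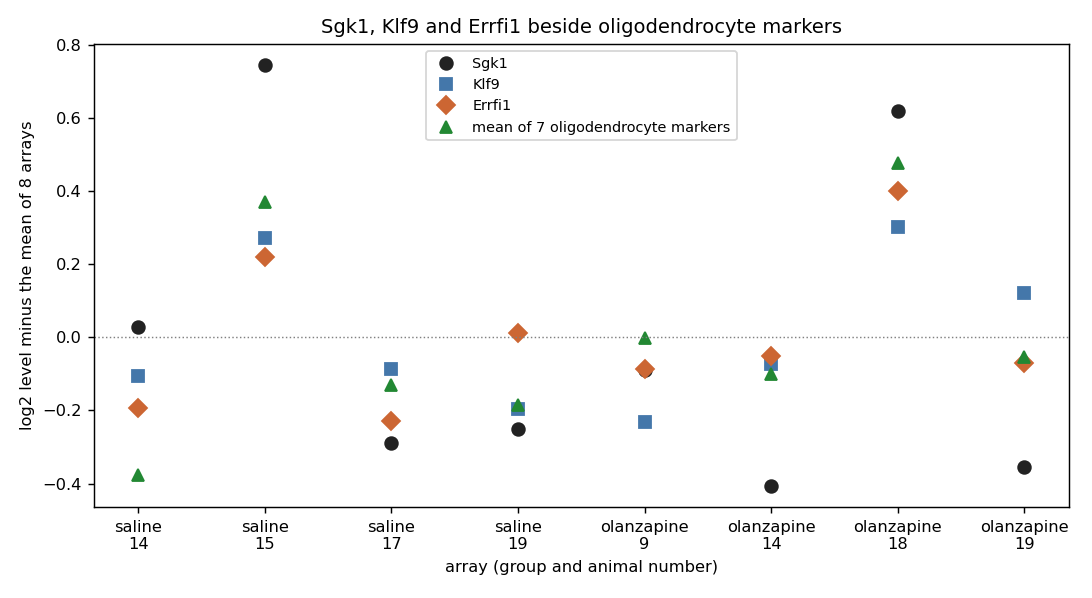
Log2 level minus the mean of the 8 arrays (y axis) on each array (x axis, group and animal number) for Sgk1 (circles), Klf9 probe set 1370209_at (squares), Errfi1 (diamonds) and the mean of 7 oligodendrocyte markers (triangles). All 4 series have their 2 highest values in saline 15 and olanzapine 18.

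Levels of the 9 genes (the brightest probe set of each) were compared in 36 pairs over the 8 arrays by an exact two-sided permutation test. After Benjamini-Hochberg adjustment over the pairs, 0 passed by Pearson's r and 0 by Spearman's rho, with 6 pairs at an unadjusted permutation p under 0.05 by Pearson's r. Correlations were as often above 0 as below it, in 18 of 36 pairs.

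Nr3c1 and Tsc22d3 had r = 0.72 (exact permutation p = 0.0470, adjusted 0.282) and rho = 0.90 (exact permutation p = 0.00456, adjusted 0.164). Without saline 19 and olanzapine 19, the arrays farthest from the Nr3c1 median, r was 0.91, and with each group centred on its own mean it was 0.77. It was lower after quantile normalization (0.67, exact permutation p = 0.0658), cyclic loess (0.65, exact permutation p = 0.0776) and median centring (0.68, exact permutation p = 0.0564). With 1 array left out r ran from 0.68 without olanzapine 9 to 0.98 without saline 15. Saline 15 alone moved the pair to the threshold, since without it r was 0.98 (exact permutation p = 0.00139, adjusted 0.05). The receptor gene and this target were high and low in much the same animals, short of the adjusted threshold. For Fkbp5 and Errfi1 r was 0.78 (exact permutation p = 0.0241, adjusted 0.282) and rho 0.76 (exact permutation p = 0.0368, adjusted 0.662). It was 0.69 without saline 14 and saline 17, and 0.77 with groups centred.

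The remaining pairs under the unadjusted threshold had a lower r without the 2 arrays farthest from the first gene's median. Leaving these out also narrows the range of that gene. Klf9 and Errfi1 had r = 0.77 (exact permutation p = 0.0254, adjusted 0.282; rho = 0.60, exact permutation p = 0.132, adjusted 0.779), which became -0.095 without saline 15 and olanzapine 18. With 1 array left out it ran from 0.61 to 0.84, and with groups centred it was 0.76. With the mean of the tested Klf9 probe sets it was 0.54 (exact permutation p = 0.168). That mean raised r of Klf9 with Bcl6 from 0.68 to 0.77 (exact permutation p = 0.0250, adjusted 0.338). Cdkn1a and Bcl6 had r = 0.74 (exact permutation p = 0.0380, adjusted 0.282; rho = 0.52, exact permutation p = 0.197, adjusted 0.779), which became 0.10 without saline 17 and saline 19. It ran from 0.72 to 0.78 with 1 array left out and was 0.60 with groups centred. The other 2 pairs under the unadjusted threshold were Sgk1 with Errfi1 and with Klf9. Their r was above 0 over the 8 arrays, but Sgk1 fell into a pair of high arrays and 6 others, so values are given within the 6. There r was -0.39 with Errfi1 and -0.50 with Klf9. Nr3c1 itself had r = -0.23 with Fkbp5 (exact permutation p = 0.590, adjusted 0.794) and rho = -0.21 (exact permutation p = 0.619, adjusted 0.886).

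Of 13103 other named probe sets, the one most like Nr3c1 over the 8 arrays was Ubxn2a, an adaptor of the p97 ATPase, with r = 0.97 and rho = 0.88. Next came Sec63, of the endoplasmic reticulum translocation channel, with r = 0.96 and rho = 0.98, and Pdgfra, a growth factor receptor gene typical of oligodendrocyte precursors, with r = 0.96 and rho = 0.81. Most like Nr3c2 were Arl6 (r = 0.95, rho = 0.88), the stress transcription factor gene Xbp1 (r = 0.95, rho = 1) and Sec22c (r = 0.94, rho = 0.93). These were the highest of a long ranking over 8 arrays, so they describe these animals and carry no test.

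Genes around the receptor were described as lists, with the brightest tested probe set of each gene. For comparison with the counts of each list, 56% of all tested probe sets had a difference above 0. Among other genes that glucocorticoids induce, 15 of 24 were tested, 10 with a difference above 0 and 5 below, with a median of 0.12 and 0 passing. Per1, a clock gene with a glucocorticoid response element in mice, was dim, at 153, 38.0, 77.9 and 106 in saline 14, 15, 17 and 19. Levels in olanzapine 9, 14, 18 and 19 were 102, 163, 183 and 183. Saline 15 was lowest and the groups overlapped, with a difference of 0.53 (SE 0.26, limma adjusted p = 0.621) and 0.33 without saline 15.

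Mt2A, which encodes a metal-binding protein, differed by 0.21 (SE 0.12, limma adjusted p = 0.710). Pdk4, a kinase gene that restrains pyruvate oxidation, differed by 0.35 (SE 0.22, limma adjusted p = 0.730), and by 0.20 without saline 17. Dusp1, a phosphatase gene that turns off MAP kinases, was at 6199, 4822, 976 and 3472 in saline 14, 15, 17 and 19 and at 2760 to 3720 in olanzapine. The saline spread enclosed all olanzapine values. The difference was -0.030 (SE 0.38, limma adjusted p = 0.992), -0.58 without saline 17, 0.28 without saline 14 and 0.015 after quantile normalization. Saline 17 was thus the lowest array for both Dusp1 (1368146_at) and Cdkn1a (1388674_at). A second Dusp1 probe set, 1368147_at, was dim and not tested. It was at 11.5 to 94.9 in saline and 17.2 to 60.3 in olanzapine, with a difference of -0.32.

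Chaperones of the receptor complex had 9 of 14 genes tested, 1 with a difference above 0 and 8 below, with a median of -0.049. None passed. Hsp90ab1, a heat shock protein that holds the receptor ready for hormone, was at 1418, 1480, 1611 and 1249 in saline 14, 15, 17 and 19 (probe set 1375336_at). In olanzapine 9, 14, 18 and 19 it was at 1207, 1163, 1243 and 917. All 4 olanzapine values were below all 4 saline values, by 1243 against 1249 at the nearest, as in 2.07% of all tested probe sets. Its difference was -0.33 (SE 0.12), with a limma adjusted p of 0.488 and an unadjusted limma p of 0.0142. With 1 array left out it ran from -0.40 to -0.24. Its other probe set, 1375335_at, had overlapping groups and a difference of -0.056 (SE 0.17), which was 0.12 without saline 17. The co-chaperone gene Stip1 differed by 0.23 (SE 0.15) and Dnajb1 by -0.086 (SE 0.09). Fkbp4, whose product favours transport of the receptor to the nucleus, was too dim to be tested, at 97.0 ± 40.4 in saline and 97.3 ± 29.6 in olanzapine (SD, n = 4). Hsp90aa1 had no probe set with that symbol alone and was not analysed here.

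Coregulators, the proteins that join the receptor on DNA, had 10 of 12 genes tested, 4 above 0 and 6 below, with a median of -0.024 and 0 passing. The median was 0.014 without olanzapine 9 and -0.076 after median centring. Ep300, an acetyltransferase gene, differed by -0.17 (SE 0.11), the corepressor gene Nrip1 by -0.11 (SE 0.09) and the remodeller gene Smarca4 by 0.16 (SE 0.15). Without saline 14 these were -0.090 for Ep300 and 0.070 for Smarca4. A second tested Smarca4 probe set, 1375469_at, differed by 0.22 (SE 0.27), and by -0.049 without saline 15. A dimmer Ep300 probe set, 1369307_at, differed by 0.10 (SE 0.21), and by -0.058 without saline 15.

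Genes that set how much active steroid reaches the receptor had 4 of 8 tested, 3 above 0 and 1 below, with a median of 0.31 and 0 passing. The median was 0.18 without saline 17 and 0.050 with the brightness limit at the 60th percentile. Akr1c14, a hydroxysteroid dehydrogenase gene that in rats acts on neurosteroids and other hormones, was at 33.3, 175, 122 and 125 in saline 14, 15, 17 and 19. In olanzapine 9, 14, 18 and 19 it was at 445, 124, 357 and 330 (probe set 1370563_at). In olanzapine 3 of 4 arrays lay above every saline array, whereas olanzapine 14 lay among the saline values. Its difference was 1.07 (SE 0.31, 95% interval 0.40 to 1.74), with a limma adjusted p of 0.378 and an unadjusted limma p of 0.00388. With 1 array left out it ran from 0.80 without saline 14 to 1.38 without olanzapine 14. Mean levels of the meningeal markers in olanzapine 9, 14, 18 and 19 were 9.43, 8.88, 8.68 and 8.61. They were 8.26, 8.37, 8.35 and 8.48 in saline 14, 15, 17 and 19. Olanzapine 9 was highest and saline 14 lowest in both Akr1c14 and these markers. Olanzapine 14, low in Akr1c14, was second highest in the markers. The part of meningeal tissue in the Akr1c14 values was not tested. Neither of the other 2 Akr1c14 probe sets was bright enough to be tested. Probe set 1396933_s_at was at 32.3 to 116 with a difference of -0.11, and 1370708_a_at was at 4.36 to 59.5 with a difference of 0.22.

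Hsd11b1, whose enzyme regenerates active corticosterone inside cells, was at 674 ± 215 in saline and 771 ± 150.0 in olanzapine (SD, n = 4). Its difference was 0.20 (SE 0.19, limma adjusted p = 0.829), and 0.050 without saline 19. H6pd, which supplies that enzyme with its cofactor, was dim, at percentile 40.8 of brightness, just above the limit for testing. Its level was 98.9 ± 43.6 in saline and 148 ± 28.6 in olanzapine (SD, n = 4). H6pd differed by 0.41 (SE 0.24, limma adjusted p = 0.713), and by 0.21 without saline 17.

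In the corticotropin-releasing hormone system 3 of 6 genes were tested, 3 above 0, with a median of 0.25 and 0 passing. Crh, the gene of the releasing hormone, which some cortical interneurons express, was at 403, 298, 466 and 344 in saline 14, 15, 17 and 19 and at 479, 524, 410 and 423 in olanzapine 9, 14, 18 and 19. The groups overlapped, and the difference was 0.25 (SE 0.15, limma adjusted p = 0.721). Ucn, the gene of the related peptide urocortin, differed by 0.59 (SE 0.30, limma adjusted p = 0.647) and by 0.25 without saline 17, the lowest array at 16.6. Crhbp, whose product binds the hormone, differed by 0.16 (SE 0.20). All 5 lists are shown in the plot of genes around the receptor.

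**Figure D4:**
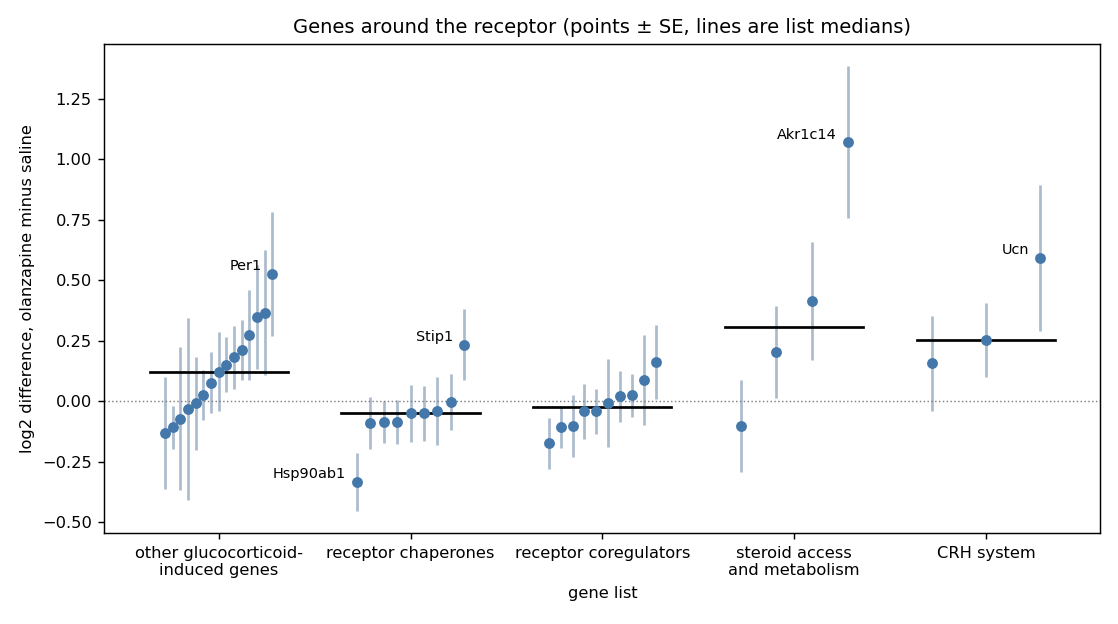
Log2 difference, olanzapine minus saline (y axis), for each tested gene of 5 lists (x axis); points are genes with their SE and black lines are list medians. The medians are 0.12, -0.049, -0.024, 0.31 and 0.25 from left to right, Akr1c14 is highest at 1.07 and Hsp90ab1 lowest at -0.33, and none passed the adjusted test.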

How the data were processed

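The authors deposited 1 table of linear intensities for 31099 probe sets on 8 arrays. All arrays had a mean of 500.0 after removal of the lowest and highest 2% of values, which points to scaling of each array to that value before deposit. The sources used here name no scanner software, background correction or probe summary method, and the number of arrays limits the precision. Symbols came from the platform's annotation table, and only probe sets with 1 symbol were named. RefSeq tables of the GRCr8 assembly gave promoter sequences.

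From these values log2(intensity + 63.4) was computed, the added value being the 25th percentile, which understates changes of dim genes. Probe sets at or below the 40th percentile of mean log2 value were removed. A linear model without covariates was fitted to all 18625 that remained in limma 3.58.1 under R 4.3.3 (eBayes with a mean-variance trend, two-sided, Benjamini-Hochberg adjustment at 0.05). Every p-value called a limma p comes from it or, where an alternative is named, from limma with that change. The fit and the permutation test were checked on simulated data. Each array was a separate animal. Pairs of members were compared by exact permutation of the arrays.

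The members, lists and tests were chosen with earlier results of these data known. Named were all member probe sets, the 3 genes of each list with the smallest p, Per1, Dusp1, Hsp90aa1, Fkbp4 and Hsd11b1, and the 3 genes most correlated with each receptor. The marker genes given by name, the second probe sets of list genes and the motifs were chosen after values were seen. Alternatives were 2 other pseudocounts (16 and 200), 3 normalizations, 2 filters, array weights, no trend, a plain test, a replicate block and each array left out, and for pairs the mean of a gene's probe sets.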

Additional observations from a re-analysis of the deposited data

Results flagged for a closer look

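In 28 checks of a group of 4 arrays for 1 array far from the other 3 (Dixon's ratio, on log2 values), 4 receptor or target probe sets were marked, and chance alone marks about 1 check in 20. Errfi1 (1373093_at) was at 1718 in olanzapine 18 against 1206 to 1238 in the other olanzapine arrays. The other 3 marks were on dim probe sets that were not tested. Fkbp5 (1380611_at) was at 80.2 in saline 17 where saline 14, 15 and 19 lay at 9.16 to 15.0. Klf9 (1387882_at) was at 77.6 in saline 19, where the remaining saline arrays lay at 7.08 to 14.1. Cdkn1a (1387391_at) was at 5.28 in olanzapine 9 against 19.2 to 22.3 in the other olanzapine arrays.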

How the results depend on the processing

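Under the 19 alternatives, 0 member probe sets were called in any, and 176 of 189 differences of tested members kept their direction. The changed filters, the fit without the trend and the plain test leave each difference as it was, so their values could not reverse. The 176 include these values, which say nothing about how stable the directions are. Over all probe sets 0 were called with 8 arrays, 6 with the animal number as a replicate block, and 0 to 107 with 1 array left out, the 107 without saline 19 and 1 without olanzapine 9. The numbers 14 and 19 occur in both groups but mark different animals. No other number occurs in both, so under the block each difference rests on the arrays numbered 14 and 19 alone. Deviations of the same-numbered arrays correlated at 0.075 and 0.11, those of differently numbered ones at -0.13 to 0.13. Under the block 991 probe sets had an unadjusted p under 0.05, against 1549 without it. Member pairs with an adjusted permutation p under 0.05 were 0 in every alternative run, and without saline 15 Nr3c1 with Tsc22d3 was exactly at 0.05.

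The 13 reversals were of differences that were small before the change, from -0.12 (Sgk1) to 0.14 (Tsc22d3). The reversed value of Tsc22d3 under the block was larger than its starting one. The cause of the reversals was not tested beyond the array left out. Nr3c1 turned to 0.057 without olanzapine 19. Nr3c2 turned to -0.0064 after quantile normalization, -0.0097 after cyclic loess, -0.00092 after median centring and -0.049 without olanzapine 19. Sgk1 turned to 0.0067 after quantile normalization, 0.0056 after cyclic loess, 0.11 without saline 15 and 0.00068 without olanzapine 14. Tsc22d3 turned to -0.27 under the block and -0.088 without saline 15, Klf9 (1370209_at) to -0.032 and Errfi1 to -0.022 without olanzapine 18. With 1 array left out these 6 ran from -0.093 to 0.057 (Nr3c1), -0.049 to 0.23 (Nr3c2), -0.34 to 0.11 (Sgk1), -0.088 to 0.31 (Tsc22d3), -0.032 to 0.16 (Klf9) and -0.022 to 0.18 (Errfi1). The difference of Cdkn1a was 0.37 under the block. Members with an unadjusted p under 0.05 numbered 0 to 2, and without saline 17, saline 19 or olanzapine 18 there were 0. The member was not always Cdkn1a. Under the block it was Bcl6 and in the plain test Klf9 (1390076_at). Bcl6 joined Cdkn1a after quantile normalization and cyclic loess, with array weights, without saline 15 and without olanzapine 9. Without the mean-variance trend it was Klf9 (1390076_at), with an unadjusted limma p of 0.0193. The 4 member probe sets below the filter had adjusted p-values of 0.873 to 0.978 when it was dropped.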
